A study of Homo sapiens with 12 samples.

Results

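The Notch pathway genes examined here were the receptors NOTCH1, NOTCH2 and NOTCH3, the ligands JAG1, JAG2 and DLL1, and the HES and HEY family genes HES1, HES6, HEY1 and HEYL. They were taken as all gene probes of the array that carry one of these symbols, which gave 12 probes for 10 of the 30238 gene names on the array. Rh30 is an alveolar rhabdomyosarcoma line that carries PAX3-FKHR, a fusion of the PAX3 and FOXO1 (FKHR) genes. It was studied as 3 cultures, compared in pairs on 12 two-color Agilent whole human genome arrays. WT was the untransfected parental line, grown without puromycin. CON was 1 stable clone with a non-targeting shRNA, and KD1 was 1 stable clone with an shRNA against PAX3-FKHR, both grown in puromycin at 1 μg/mL. All were grown for 24 h in DMEM with serum before RNA extraction. The arrays were made to look for genes that depend on the fusion. KD1 vs CON, KD1 vs WT and WT vs CON each had 2 biological replicates with a dye-swap pair, so that 6 RNA extracts were each measured on 4 arrays. Nothing in the labels says whether the replicates came from separately thawed or separately kept cultures, and the p-values measure the spread between these extracts. As each kind of clone is 1 clone and WT had no puromycin, the shRNA, the clone and the drug cannot be told apart in the comparisons with WT, nor the shRNA and the clone in KD1 vs CON.

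Notch is a receptor through which a cell senses its neighbours. A JAG or DLL ligand on one cell binds a NOTCH receptor on another, the receptor is cut by ADAM proteases and then by gamma-secretase, and the freed intracellular domain joins the DNA-binding protein RBPJ and switches on HES and HEY genes, whose products repress transcription. In muscle, Notch activity keeps precursor cells from differentiating, and HES6 differs from its relatives in opposing HES1 and favouring differentiation.

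The RBPJ motif was looked for in the promoters of the members, because HES1 and HEYL are textbook targets of this complex. RefSeq promoters on build GRCh38.p14 were found for 8 of the 10 members, all but DLL1 and HEY1. The letters TGGGAA, searched on both strands in the 250 bases before the start, occurred in the promoters of HES1 and HEYL and not in those of the other 6 members, while 20.8% of all 35116 promoters hold them. The longer GTGGGAA, which overlaps it, was also in HES1 and HEYL, against 5.43% of all promoters. The capitals in the pair of sequences below mark TGGGAA or its complement, at chr3:194135898-194136147 on the plus strand for HES1 and chr1:39639644-39639893 on the minus strand for HEYL.
HES1: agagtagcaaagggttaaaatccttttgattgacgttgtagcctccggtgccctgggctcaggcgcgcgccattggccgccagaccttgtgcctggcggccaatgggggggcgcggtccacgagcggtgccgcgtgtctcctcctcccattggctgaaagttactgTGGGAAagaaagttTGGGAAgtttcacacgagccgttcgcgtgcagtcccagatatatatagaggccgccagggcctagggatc
HEYL: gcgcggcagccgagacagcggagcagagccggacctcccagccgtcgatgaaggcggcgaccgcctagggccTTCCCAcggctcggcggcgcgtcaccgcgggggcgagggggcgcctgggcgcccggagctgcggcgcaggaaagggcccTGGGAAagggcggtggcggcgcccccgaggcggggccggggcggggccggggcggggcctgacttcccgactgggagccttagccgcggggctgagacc
In HES1 the matches began 84 and 70 bases before the start, close together and on one strand. In HEYL they began 178 and 99 bases before it and lay on opposite strands. CACNAG, the N-box bound by HES proteins, occurred in the promoters of HES1 (3 matches) and NOTCH3 (1 match), and in 32.0% of all promoters. These matches describe the letters of the windows and no binding was measured.

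Of the 12 member probes, 11 were well above background, by the flag of the extraction software, in all 8 channels of each culture. The exception was the dimmest of the 3 HES1 probes. The sequences of 3 member probes are shown to make clear which pieces of RNA stand behind values discussed below, with coordinates on build NCBI36 as in the deposited files.
HES1 A_23_P6596, chr3:195336970-195337157, plus strand: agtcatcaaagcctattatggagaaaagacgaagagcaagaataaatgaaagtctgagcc
HES6 A_23_P131202, chr2:238812889-238812948, minus strand: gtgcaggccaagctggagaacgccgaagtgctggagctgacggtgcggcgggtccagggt
NOTCH3 A_24_P399606, chr19:15132756-15132815, minus strand: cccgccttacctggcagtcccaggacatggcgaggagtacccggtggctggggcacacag
The HES1 probe of 60 bases spans 188 bases of the genome, so that it crosses an intron and matches the spliced transcript. The other members have 1 probe each, and the NOTCH1 probe is printed in 10 spots that were averaged. The NOTCH2 probe lies at position 10683 of its transcript, far from the front part that the NOTCH2NL paralogs copy.

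The labels of the cultures were checked first. With the brightest probe of each gene, PAX3 in KD1 had a log2 ratio of −0.42 ± 0.04 (SD, n = 2) over CON and −0.39 ± 0.08 over WT, and FOXO1 had −0.42 ± 0.23 and −0.60 ± 0.26. None passed the limma test, with adjusted p between 0.27 and 0.43, and these probes also measure the unrearranged genes. The study itself reported lower PAX3-FKHR mRNA by RT-PCR and lower protein by Western blot in KD1 than in CON. Of 6 genes that mark muscle-lineage or fusion-positive rhabdomyosarcoma cells, 5 (DES, MYOD1, MYOG, CDH15 and CHRNA1) were well above background in all 24 channels, whereas TFAP2B was so in 0. Of the markers of other cell types, PECAM1, an endothelial adhesion molecule, was well above background in 24 channels, and PTPRC, EPCAM, KRT5 and CDH5 in between 0 and 8. Whether cells of other types were present, and their part in the Notch results, was not tested. In bulk RNA fewer cells with a transcript and less of it per cell cannot be told apart.

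No member passed the limma test at an adjusted p of 0.05 in any comparison. The probes tested were those above the negative controls on every array of a comparison, which left out the dim HES1 probe throughout and NOTCH3 in KD1 vs CON. In KD1 vs CON 0 of 10 tested member probes were called, where 1.79% of all 21937 tested probes were. In KD1 vs WT the number was 0 of 11 against 1.05% of 24884 probes, and in WT vs CON 0 of 11 against 1.37% of 26595. At an unadjusted limma p under 0.05, 2 of 10 member probes (HEYL, DLL1) stood in KD1 vs CON beside 17.2% of all probes, 4 of 11 (HEYL, HES6, NOTCH3, JAG2) against WT beside 17.2%, and 2 of 11 (NOTCH3, NOTCH2) between WT and CON beside 16.5%. The median log2 ratio of the tested member probes was −0.25 for KD1 over CON, −0.46 for KD1 over WT and 0.00 for WT over CON, where the medians of all tested probes were −0.01, 0.01 and −0.03.

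**Figure D1:**
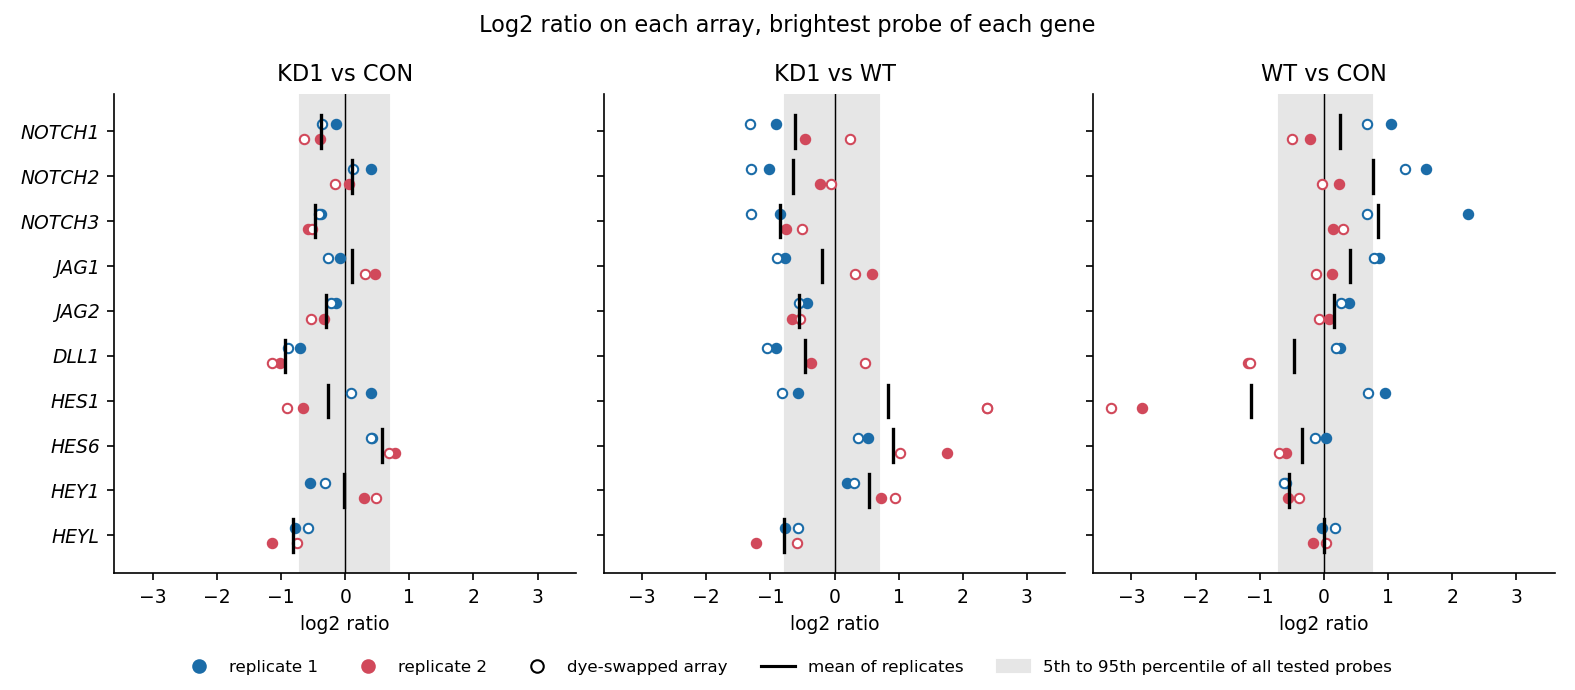
Log2 ratio (horizontal axis) of the brightest probe of each member on each of the 4 arrays of a comparison (1 panel each), with replicate 1 in blue, replicate 2 in red, dye-swapped arrays as open circles, the mean of the replicates as a black bar and the 5th to 95th percentile of all tested probes in grey. HEYL, JAG2 and NOTCH3 lay below 0 and HES6 above 0 on all 8 KD1 arrays, and HES1 lay on both sides of 0 in every comparison.

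The member with the lowest adjusted p in both KD1 comparisons was HEYL, a HEY family repressor that responds to Notch in muscle precursors and in smooth muscle. Its probe lies at chr1:39862428-39862487 on the minus strand. The log2 signals of the extracts were 14.58 and 14.66 in WT, 14.53 and 14.65 in CON, and 13.88 and 13.77 in KD1, in the order of replicates 1 and 2. Both KD1 extracts were below all 4 others, and the WT and CON extracts overlapped. KD1 had a log2 ratio of −0.81 ± 0.19 (SD, n = 2) over CON, a 1.76-fold lower signal, and of −0.78 ± 0.17 over WT, a 1.72-fold lower signal. The 95% intervals were −1.27 to −0.36 and −1.25 to −0.32, and the adjusted p from limma were 0.095 and 0.12. In WT vs CON the ratio was 0.00 with an interval of −0.48 to 0.48.

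HEYL and JAG2 were lower in KD1 on all 8 arrays, 2 of the 10 member probes tested in both KD1 comparisons, and 8.36% of all 21882 such probes were. HES6 was higher on all 8, 1 of 10, against 7.87% of all probes. NOTCH3 was also lower on all 8 arrays but was tested only against WT. These comparisons share the KD1 extracts, so the 8 arrays are not independent.

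HES6 stood in the opposite direction from HEYL. Its log2 signals were 12.06 and 11.90 in WT, 12.11 and 12.59 in CON, and 12.57 and 13.37 in KD1. The second CON extract reached the level of the first KD1 extract, so CON and KD1 overlapped, while both WT extracts were below both KD1 extracts. Within a replicate KD1 was above the other cultures throughout, with log2 ratios of 0.41 and 0.73 over CON and of 0.44 and 1.38 over WT. The means were 0.57 ± 0.23 (adjusted p = 0.31, limma) and 0.91 ± 0.66 (adjusted p = 0.15), and in WT vs CON −0.35 ± 0.42.

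Of the other family members, HEY1, a Notch target in many tissues that lies on chromosome 8, had log2 signals of 9.77 and 10.03 in WT, 10.39 and 10.45 in CON, and 10.02 and 10.87 in KD1. Both WT extracts were below both CON extracts, and the KD1 extracts lay on either side of CON. The ratio was −0.54 ± 0.09 in WT vs CON, below 0 on 4 of 4 arrays, 0.54 ± 0.42 for KD1 over WT and −0.02 ± 0.58 for KD1 over CON. No value passed the test (adjusted p of 0.33, 0.32 and 0.99, limma).

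HES1, a repressor often used as a readout of Notch signaling, differed more between the replicates of a clone than between the cultures. The brightest probe (A_23_P17998, chr3:195338870-195338929) had log2 signals of 8.86 and 9.08 in WT, 7.96 and 12.15 in CON, and 8.20 and 11.41 in KD1. The second extract of CON was thus 18.3-fold above the first and that of KD1 9.25-fold, whereas the WT extracts differed by 1.17-fold. In replicate 1 WT was above both clones, and in replicate 2 both clones were above WT. The ratio of WT over CON was 0.81 in replicate 1 and −3.08 in replicate 2, and that of KD1 over WT was −0.69 and 2.37. The mean ratios of −1.13 ± 2.75, 0.84 ± 2.17 and, for KD1 over CON, −0.27 ± 0.73 therefore describe neither replicate, and their adjusted p from limma lay between 0.53 and 0.92.

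The other HES1 probes repeated this pattern. The probe A_24_P938293, at chr3:195336738-195336797 near the front of the transcript, had 9.04 and 9.13 in WT, 7.87 and 12.16 in CON, and 8.20 and 11.09 in KD1. The intron-crossing probe A_23_P6596, whose sequence is given above, had 2.68 and 3.48 in WT, 2.26 and 5.89 in CON, and 2.44 and 5.31 in KD1, and was well above background in 1 of 8 WT channels and in 4 of 8 channels of each clone. All 3 probes thus placed the second extract of each clone above every other extract. Both CON extracts were on the slide of the WT vs CON arrays, and within that slide the difference between them was 4.17 for A_23_P17998 and 4.38 for A_24_P938293, close to the 4.19 and 4.29 over all arrays. The KD1 extracts of the replicates were on different slides, so their levels were not compared within a slide. Each KD1 extract did share arrays with the CON extract of its replicate. There KD1 over CON was 0.25 in replicate 1 and −0.78 in replicate 2 for A_23_P17998. The part of the slide in the KD1 difference was not tested. Among the 21870 probes tested in all 3 comparisons, the differences of A_23_P17998 and A_24_P938293 were exceeded in size by 2 and 1 other probes in CON and by 30 and 45 in KD1, where the median difference in size over all probes was 0.20 and 0.27.

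**Figure D2:**
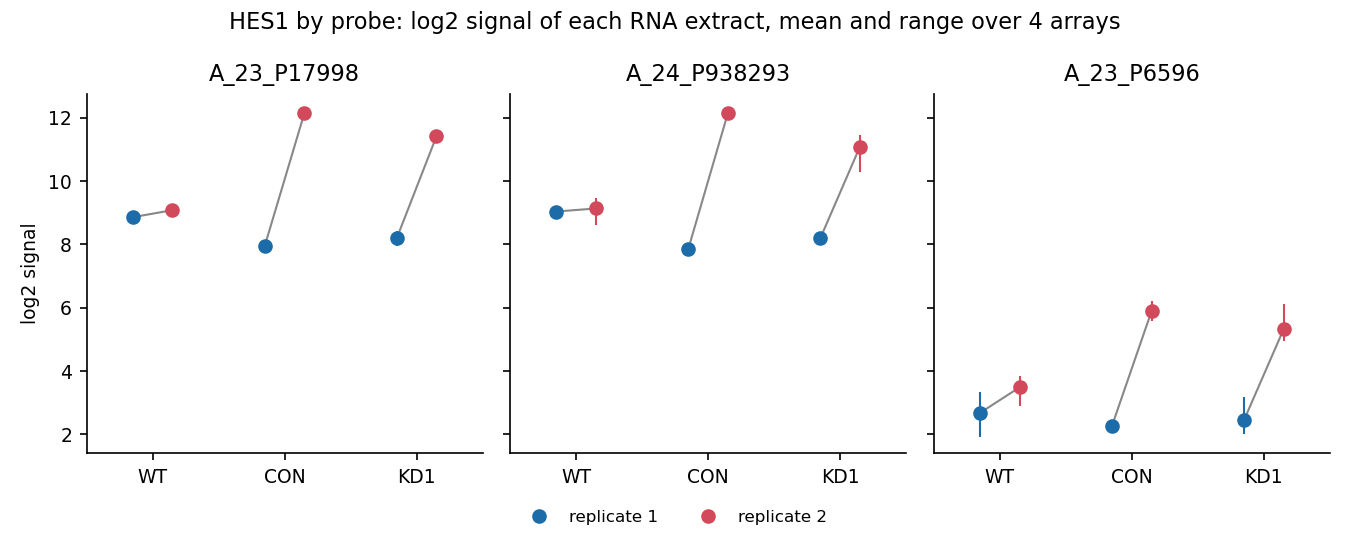
Log2 signal (vertical axis) of the 3 HES1 probes in the WT, CON and KD1 extracts of replicate 1 (blue) and replicate 2 (red), as the mean and range over the 4 arrays of an extract, with a grey line joining the replicates of a culture. For every probe the second CON and KD1 extracts lie above all others, for example at 12.15 and 11.41 with A_23_P17998. The WT extracts stay near each other with A_23_P17998 and A_24_P938293, and lie at 2.68 and 3.48 with A_23_P6596.

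Among the receptors, NOTCH2 (chr1:120256381-120256440), a receptor of muscle stem cells, had log2 signals of 15.16 and 14.49 in WT, 13.75 and 14.33 in CON, and 14.02 and 14.39 in KD1. WT was the highest culture in both replicates, but its second extract was close to those of both clones. The WT vs CON ratio was 1.43 in replicate 1 and 0.10 in replicate 2, with a mean of 0.77 ± 0.94 (adjusted p = 0.30, limma). KD1 differed from WT by −0.65 ± 0.72 and from CON by 0.10 ± 0.22.

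NOTCH1 (chr9:138509585-138509644), the receptor best known from T-cell leukemia, had 10.52 and 9.97 in WT, 9.58 and 10.20 in CON, and 9.35 and 9.88 in KD1. By the extract levels KD1 was the lowest culture in each replicate, by little in replicate 2. There the array of KD1 vs WT gave −0.47 and its dye swap 0.25, so the direct arrays did not settle the order of KD1 and WT. The ratio of KD1 over CON was −0.38 ± 0.18, below 0 on 4 of 4 arrays, and that over WT was −0.61 ± 0.72 (adjusted p of 0.59 and 0.37, limma).

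NOTCH3, a receptor of vascular smooth muscle that is also found in muscle precursors, had log2 signals of 7.01 and 6.16 in WT, 5.78 and 5.94 in CON, and 5.48 and 5.54 in KD1. The order WT, CON, KD1 from high to low held in both replicates. The ratio was −0.85 ± 0.32 for KD1 over WT (adjusted p = 0.20, limma, interval −1.51 to −0.20), 0.84 ± 0.88 for WT over CON (adjusted p = 0.21) and, untested, −0.47 ± 0.11 for KD1 over CON. The array of WT vs CON in replicate 1 gave 2.24 and its dye swap 0.68. For this replicate the direct KD1 vs CON ratio of −0.39 and the sum of the ratios over WT, 0.38, differed by 0.77, the widest gap of any member, while the median gap over the 12 member probes and 2 replicates was 0.05. The WT over CON ratio of NOTCH3 and its level in the first WT extract therefore rest in part on 1 array. The KD1 over WT ratio does not use that array and lay between −1.31 and −0.50 on its own 4 arrays. Its interval and adjusted p do depend on that array, because the fit pools the spread of all comparisons.

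Among the ligands, DLL1 (chr6:170433567-170433626), which signals between muscle precursors, was lower in KD1 than in CON in both replicates. Its log2 signals were 11.59 and 10.92 in WT, 11.42 and 11.93 in CON, and 10.60 and 10.97 in KD1. Both KD1 extracts were below both CON extracts, but the second WT extract was as low as KD1. The ratio was −0.94 ± 0.20 in KD1 vs CON, a 1.92-fold lower signal, with an interval of −1.70 to −0.18 and an adjusted p of 0.20 from limma. Against WT it was −0.98 in replicate 1 and 0.06 in replicate 2, and WT differed from CON by 0.22 and −1.17. The 0.06 is a mean of arrays of opposite sign, −0.36 on the array and 0.48 on its dye swap.

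JAG2 (chr14:104679719-104679778), a Jagged ligand, had small differences between the cultures. Its log2 signals were 11.85 and 11.71 in WT, 11.55 and 11.62 in CON, and 11.35 and 11.15 in KD1. The cultures did not overlap, with WT highest and KD1 lowest. KD1 vs WT was −0.55 ± 0.08 (adjusted p = 0.23, limma) and KD1 vs CON −0.31 ± 0.18 (adjusted p = 0.49), while WT vs CON was 0.17 ± 0.23. In replicate 2 the arrays of WT vs CON gave 0.08 and −0.08, so that the order of WT and CON in that replicate rests on the extract levels alone.

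JAG1 (chr20:10567061-10567120), the other Jagged ligand, showed no culture apart from the rest. It had 9.35 and 8.62 in WT, 8.55 and 8.63 in CON, and 8.41 and 8.96 in KD1, and the replicates of KD1 over CON (−0.18 and 0.39) and over WT (−0.83 and 0.45) were of opposite sign. The interval of KD1 over WT, −0.93 to 0.55, still included a value as low as that of HEYL (−0.78).

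**Figure D3:**
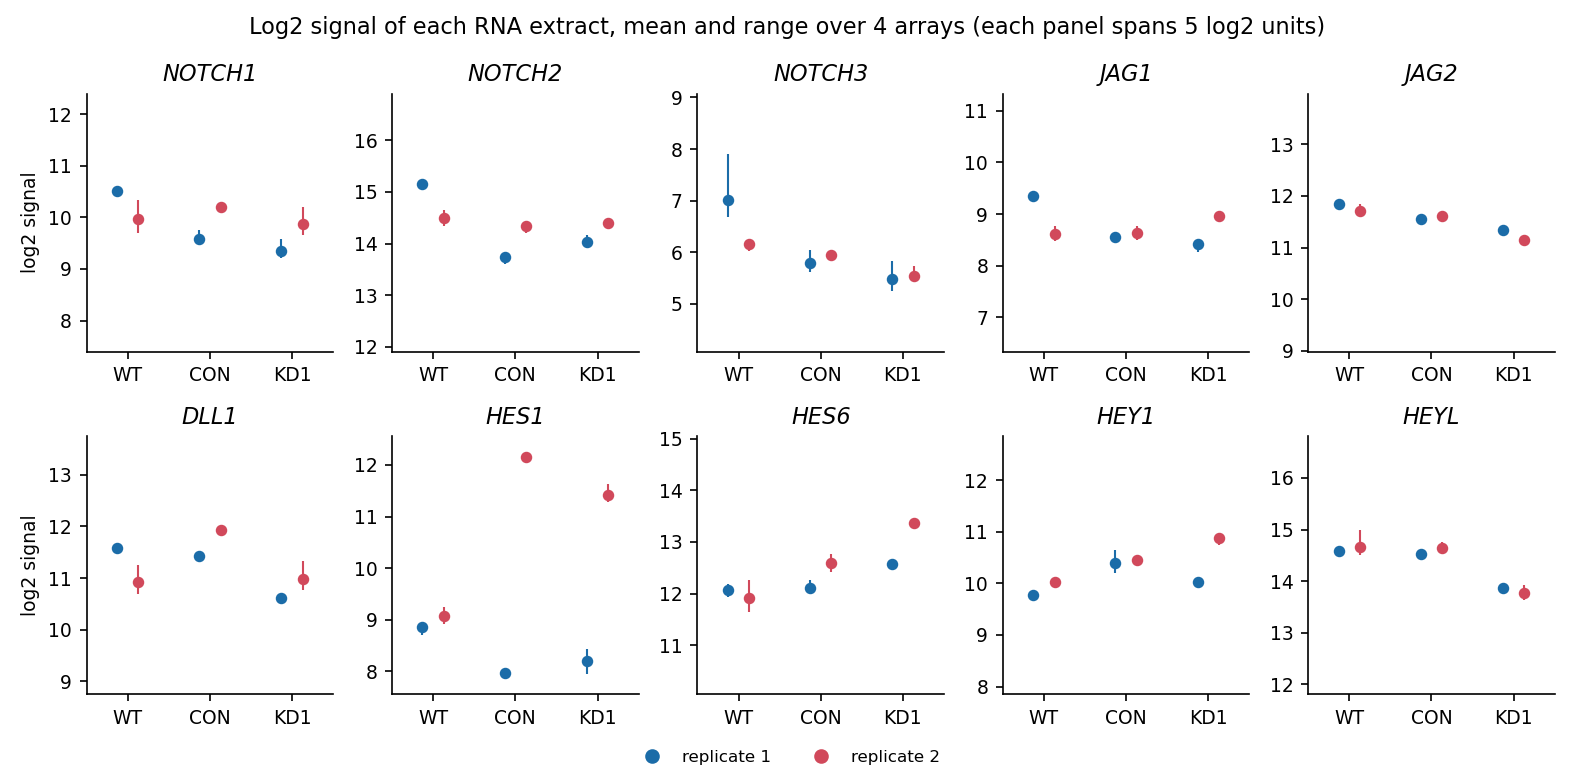
Log2 signal (vertical axis, 5 log2 units in every panel) of the brightest probe of each member in the WT, CON and KD1 extracts, as the mean and range over the 4 arrays of each extract, replicate 1 in blue and replicate 2 in red. The KD1 extracts of HEYL lie at 13.88 and 13.77, below all others, whereas the HES1 extracts of each clone lie more than 3 log2 units apart.

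Several receptors and ligands also differed between the replicates in a shared direction. From replicate 1 to replicate 2, NOTCH1, NOTCH2, NOTCH3, JAG1, DLL1 and HES6 were lower in WT and higher in both CON and KD1, 6 of the 10 members by their brightest probes. Of the 9 members tested in all 3 comparisons, which leaves out NOTCH3, 5 had this pattern, where 15.1% of the 21870 probes did. The pattern was itself taken from the values of these members, so this count is a description and not a test. JAG2 was the exception among the ligands, with −0.19 in KD1, 0.07 in CON and −0.14 in WT. The pattern goes by sign alone, and some of the differences were small. In CON those of JAG1 (0.08) and NOTCH3 (0.16) were below the median size over all probes of 0.20. So were that of NOTCH3 in KD1 (0.05, median 0.27) and that of HES6 in WT (−0.16, median 0.26). For NOTCH1, NOTCH2, JAG1 and DLL1 the WT difference was between −0.54 and −0.73. For NOTCH3 it was −0.86, which rests in part on 1 array of the first WT extract. Within the slide that held both WT and both CON extracts, the WT difference of NOTCH2 was −0.75 and the CON difference 0.58, so that they opposed each other within 1 slide. The part of culture, extraction or any other step in it was not tested. Across all tested probes the replicate values of KD1 vs WT had an r of 0.39, those of WT vs CON 0.48 and those of KD1 vs CON 0.70, as a description across probes, which are not independent.

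The rest of the pathway was described with a list of 60 genes, of which 57 had 100 probes on the array. In the order KD1 vs CON, KD1 vs WT, WT vs CON, the test covered 77, 83 and 86 probes and called 2, 2 and 3 of them, beside the shares of all probes given above. The called probes belong to DLL3, LFNG, DTX3 and NOTCH4. All of them lost the call under normexp and loess (adjusted p 0.096 to 0.47, limma), a setting that called only 26, 1 and 2 of all probes, and all but the brighter DLL3 probe lost it without the replicate block (0.052 to 0.12). With no filter on low values, the calls of DTX3, NOTCH4, the dimmer DLL3 probe and LFNG in KD1 vs WT were lost as well (adjusted p 0.055 to 0.096, limma). The median log2 ratio was −0.08, −0.05 and 0.10. None of the tested probes for receptor cleavage (15 in each comparison), for the RBPJ complex (12 to 14) and for corepressors (21 or 22) passed the test.

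DLL3 had the largest difference of the list. It is a divergent ligand that acts inside its own cell and dampens Notch signaling. Its brighter probe (A_24_P57047, chr19:44690317-44690376) had log2 signals of 7.69 and 7.37 in WT, 8.19 and 8.11 in CON, and 4.05 and 4.64 in KD1, where it was well above background in 6 of 8 channels. Both KD1 extracts were far below the others. KD1 differed by −3.65 ± 0.49 from CON (adjusted p = 0.00084, limma) and by −3.03 ± 0.42 from WT (adjusted p = 0.0040). Under normexp and loess, in which 50 is added to the signal of both dyes, these values were −1.17 and −0.86 (adjusted p of 0.096 and 0.16). The dimmer probe (A_23_P16438) was well above background in 0 of 8 channels of KD1, 4 of 8 of WT and 8 of 8 of CON. Against the background limit of KD1 it was at least 2.45-fold higher in CON, and no bound could be given for WT. In WT vs CON this dimmer probe had −1.45 ± 0.71 (adjusted p = 0.049, limma) but −0.55 with median centring, and the brighter one −0.26 ± 0.43.

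LFNG, the Lunatic fringe glycosyltransferase that sets which ligands a receptor answers to, was higher in WT than in both clones. Its brighter probe (A_23_P8452) had log2 signals of 11.28 and 10.81 in WT, 9.39 and 9.05 in CON, and 9.85 and 9.48 in KD1. WT over CON was 1.82 ± 0.05 (adjusted p = 0.0094, limma) and KD1 over WT was −1.37 ± 0.13 (adjusted p = 0.027). Under normexp and loess these values were 1.62 and −1.23. KD1 over CON was 0.44 with an adjusted p of 0.29. The other probe (A_23_P434518) had 0.71 ± 0.18 and −0.70 ± 0.02 without passing the test (adjusted p of 0.15 for both, limma).

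NOTCH4, the remaining receptor, which is known from endothelium, had −1.23 ± 0.10 in WT vs CON with its brighter probe (adjusted p = 0.041, limma) and −0.88 ± 0.24 with the other (adjusted p = 0.093). KD1 lay between CON and WT, at −0.65 ± 0.11 against CON and 0.60 ± 0.15 against WT. The levels of the brighter probe were 7.79 and 8.10 in WT, 8.97 and 9.48 in CON, and 8.39 and 8.82 in KD1.

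DTX3, a ubiquitin ligase of the Deltex family, had 3 probes that were all lower in KD1 on all 8 arrays, as were 8.36% of all 21882 probes tested in both KD1 comparisons. In KD1 vs CON they had −1.25 ± 0.01, −1.12 ± 0.02 and −1.07 ± 0.01, and only the first (A_24_P359405) passed the test (adjusted p of 0.042, 0.088 and 0.057, limma). Against WT the means were −1.21, −1.23 and −0.95 with adjusted p of 0.061, 0.089 and 0.10. In WT vs CON all 3 had replicates of opposite sign.

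APH1B, a subunit of gamma-secretase, was named for its size and was not called in any comparison. With median centring, which called 4.64% of all probes in KD1 vs CON, it had −1.45 there (adjusted p = 0.00092, limma). Replicates 1 and 2 gave −1.73 and −0.68 for KD1 over CON, −1.83 and 0.60 for KD1 over WT, and 0.17 and −1.19 for WT over CON. The sign of its difference from WT thus depends on the replicate.

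**Figure D4:**
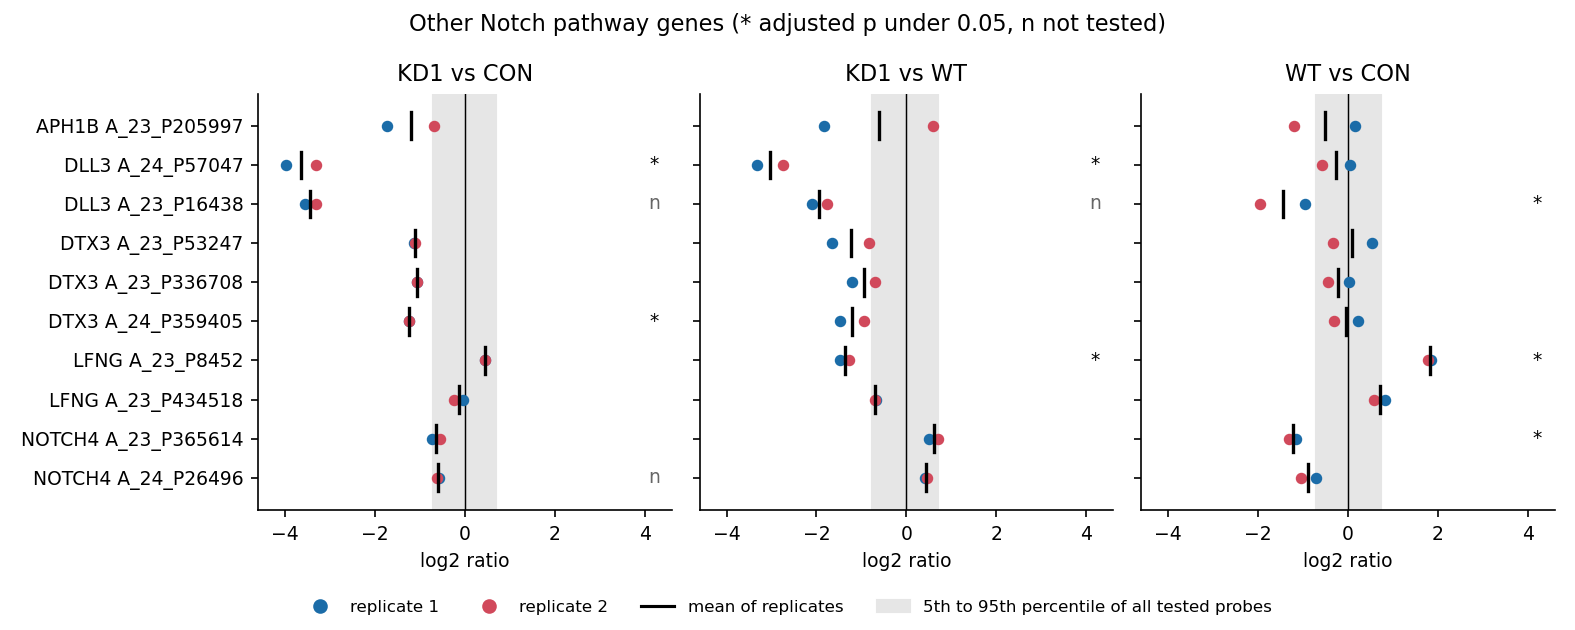
Log2 ratio (horizontal axis) of the replicates in each comparison (1 panel each) for each probe of the 5 named genes of the remaining pathway list, with replicate 1 in blue, replicate 2 in red, the mean as a black bar and the 5th to 95th percentile of all tested probes in grey. Stars mark an adjusted p under 0.05 from limma and the letter n a probe that was not tested. DLL3 reaches −3.65 in KD1 vs CON, and LFNG reaches 1.82 in WT vs CON.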

How the data were processed

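RNA from parental Rh30 cells and 2 clones was measured on 12 two-color Agilent arrays (500 ng labeled per extract). The authors extracted spots with Agilent Feature Extraction 10.5.1.1 and deposited linear intensity values per spot, background-subtracted and lowess-normalized within each array, and a log10 ratio that is 0 where both channels are at background. They also deposited a series table of the same ratios on the log2 scale. Of its per-sample columns, 0 had no matching array. Such lowess processing sets the middle of each array to equal signal in both dyes, so that a shift of all genes would not be seen.

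Here, log2 ratios of the processed intensities were turned to the first culture of a comparison over the second, summarised per probe after leaving out spots flagged as outliers (95 to 188 on an array), and then averaged for the dye-swapped arrays of a replicate. The test took in a probe if, on each array of the comparison, 1 or both channels had a background-subtracted signal over the 99th percentile of 153 negative controls. The 6 replicate values were fitted with limma 3.58.1 in R 4.3.3, with 1 coefficient per comparison and 2 residual degrees of freedom, since the 3 ratios of a replicate hold 2 independent values, which also keeps the replicate pairing of the extracts. Adjustment was by Benjamini-Hochberg over all tested probes with a threshold of 0.05. The fit was tested on simulated data. Signals of each extract were computed from the processed intensities after Aquantile scaling of the arrays, as a mean over 4 arrays. No spot was saturated, between 71.1% and 73.6% of spots were well above background in Cy3 and between 64.4% and 67.8% in Cy5, and the precision is limited by the number of arrays and of the 6 extracts they measure.

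A gene with several probes is given by its brightest probe unless another is named, and probes of different genes are not compared in level. All members were described. Of the remaining pathway list, every gene with a called probe was named, with the gene of largest mean ratio added to make 5, and PAX3 and FOXO1 for the fusion. The members and lists were chosen with earlier results of these data known. All 12 member accessions had the same symbol in a RefSeq table of GRCh38.p14. A lower bound of a fold was computed against the background limit where no channel of a culture was well above background. Python 3.11.15 with numpy 2.4.6, pandas 2.3.3 and matplotlib 3.10.9 was used. A further marker of other cell types is not reported here.

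Alternatives tried were normexp correction (offset 50) followed by loess, median centring without lowess, the series table, separate-channel values without the replicate block, no filter, a filter on spots well above background in both channels, a fit to 12 arrays with slide dye effects, each comparison fitted alone, each replicate left out, the selection rule of the study, a gene counted by its brightest probe or by the mean of its probes and, chosen after seeing the data, negative controls without outlier-flagged spots. The criteria of the selection rule were applied here to each comparison alone, WT vs CON included. The study itself required them in KD1 vs WT and KD1 vs CON together.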

Additional observations from a re-analysis of the deposited data

How the results depend on the processing

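The count of called member probes was 0 in all 3 comparisons. It stayed at 0 under the series table, no filter, the filter on both channels, each comparison fitted alone, the selection rule of the study, both ways of counting a gene and the unflagged negative controls. Without the replicate block, so that the pairing of extracts was not used, it was also 0 in each comparison. That setting called 0.917%, 0.507% and 0.429% of all probes in KD1 vs CON, KD1 vs WT and WT vs CON. The shares under the other settings ran from 0.453% (no filter, KD1 vs WT) to 3.56% (WT vs CON fitted alone). No such share is given for the selection rule and the ways of counting a gene. For so few member probes a count of 0 lies near these shares and says little about stability. Normexp and loess also gave 0, but called only 26, 1 and 2 of all probes in the 3 comparisons, so that this count says nothing about stability. With median centring it was 2 in KD1 vs CON, for HEYL (−1.04, adjusted p = 0.040) and DLL1 (−1.18, adjusted p = 0.013), and 1 in WT vs CON, for HES1 (A_23_P17998, −1.29, adjusted p = 0.0065), whose replicates were of opposite sign. Median centring called 4.64% of all probes in the first and 3.85% in the second of these comparisons. That setting shifted all tested probes by a median of −0.23 in KD1 vs CON and −0.18 in WT vs CON, and relative to this shift HEYL was at −0.81 and DLL1 at −0.95. It also turned the signs of NOTCH2 (−0.13) and JAG1 (−0.14) in KD1 vs CON and of JAG2 (−0.063), HEYL (−0.26) and DTX3 A_23_P53247 (−0.25) in WT vs CON. Without the replicate block HEY1 was at 0.027 in KD1 vs CON. With slide dye effects, where the dye swaps of an extract count as replicates, the count was 1 in KD1 vs CON (HEYL) and 3 in KD1 vs WT (JAG2, HEYL and HES6), where it called 18.0% and 16.9% of all probes. Over all alternatives with a test, HEYL ranged from −1.04 to −0.77 in KD1 vs CON (adjusted p 0.0015 to 0.18, limma) and from −0.80 to −0.67 in KD1 vs WT (0.0025 to 0.41), and HES6 from 0.88 to 1.00 in KD1 vs WT (0.024 to 0.25). NOTCH3 ranged from −1.08 to −0.25 in KD1 vs WT.

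With 1 replicate left out each comparison holds 1 value and leaves no residual degree of freedom in it, so calls were not counted, and the values are those of the single replicates. They were −0.95 and −0.68 for HEYL in KD1 vs CON, and −3.08 and 0.81 for HES1 in WT vs CON. The calls of DLL3, LFNG, DTX3 and NOTCH4 were all lost under normexp and loess (adjusted p 0.096 to 0.47, limma), where LFNG still had 1.62 (WT over CON) and −1.23 (KD1 over WT), and all but those of DLL3 A_24_P57047 were lost without the replicate block (0.052 to 0.12). No filter and the unflagged negative controls ended the calls of DTX3 (adjusted p of 0.090 and 0.083), NOTCH4 (0.081 and 0.077), LFNG in KD1 vs WT (0.055 and 0.052) and DLL3 A_23_P16438 in WT vs CON (0.096 and 0.086).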

Other observations

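The probes were ranked by how far the second extracts of both CON and KD1 lay above the first, taking the smaller difference of the pair, a rule chosen after the HES1 values were seen and given with no test. Of 21870 probes tested in all comparisons, HES1 held the first rank (3.21 in KD1, 4.19 in CON, 0.22 in WT) and the second (2.89, 4.29, 0.10). EGR1, an immediate early transcription factor, was next with 2.85 in KD1, 3.02 in CON and 1.17 in WT. FOS, another immediate early gene, had 2.80, 3.40 and 0.35 at rank 5. Within the slide that held both CON extracts, their CON difference was 3.07 for EGR1 and 3.40 for FOS.

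NUPR1, a stress-response gene, stood at rank 4 and also differed in WT (6.21 in KD1, 2.85 in CON and 3.36 in WT). The interferon-stimulated genes OASL (4.43, 2.71 and −1.05) and ISG15 (4.07, 2.00 and −0.09) stood at ranks 6 and 11, and the muscle gene MYBPC2 (3.84, 2.48 and −0.27) at rank 7. The remaining ranks 8, 9, 10 and 12 were held by A2M (4.71, 2.41 and 0.47), MFAP4 (2.52, 2.17 and −1.23), PDE4DIP (2.30, 2.12 and 0.42) and CHI3L2 (2.13, 1.93 and −1.40). No other member of the Notch family was among the first 12 probes of this order.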
